A study of Mus musculus with 17 samples.

Results

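The data are RNA-seq gene counts of whole mouse testes lacking Inha, the gene for the alpha subunit of inhibin, at embryonic days E15.5 and E13.5. They form 5 of the 17 libraries of the series, 3 titled as E15.5 Inha KO and 2 titled as E13.5 Inha KO, and they were chosen by genotype and age in the sample titles. The mice were C57/Bl6, the KO allele lacks the coding sequence of the mature alpha subunit, and heterozygous parents gave KO and wild-type (WT) littermates. The deletion is constitutive, so it covers every cell of the embryo from conception, and no animal was treated. As a reference for the course of normal development, the 3 E15.5 WT and the 3 E13.5 WT testes were analysed in the same model. The remaining 6 libraries, from newborns, entered only the estimate of the spread between libraries.

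Inhibin is a dimer of the alpha subunit with a beta subunit and opposes activin, a dimer of beta subunits that signals through SMAD2 and SMAD3, so a testis without the alpha subunit cannot make inhibin. In the fetal testis, Sertoli cells enclose the germ cells in cords, and fetal Leydig cells between the cords turn cholesterol into androgens and secrete INSL3, the hormone of testis descent. Over the ages sampled, fetal Leydig cells increase in number. Male germ cells leave the pluripotent state, stop dividing and begin to set up the piRNA pathway and the DNA methylation of sperm.

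Each gene is given in CPM, its reads scaled to a common library size with TMM, a factor that equalises the bulk of the genes between libraries. A gene is said to have risen or fallen where the Benjamini-Hochberg adjusted p of edgeR's quasi-likelihood test was below 0.05 over all 18635 genes tested and the fold change was at least 1.5. Log2 fold changes are followed by their standard errors (SE), and means by the SD over libraries. The labels carry animal numbers but do not say how many testes were pooled, so the p-values measure the spread between these libraries. In whole testes, fewer cells of a type and less RNA per cell cannot be told apart.

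The 5 KO libraries held 21883488 to 22166752 assigned reads, so depth was nearly equal. The deletion was seen in the reads of the targeted gene: Inha had 11, 68 and 6 reads in the E15.5 KO libraries and 2 and 36 in the E13.5 KO libraries, against 7878 to 14672 in the 6 fetal WT libraries. Amh, the Sertoli cell hormone that makes Müllerian ducts regress and so a defining gene of the fetal testis, was at 1517, 1562 and 1683 CPM at E15.5 and 1584 and 1819 CPM at E13.5. E15.5 KO replicate 2 stood apart in 2 ways. It had the most red cell RNA, with Slc4a1, the red cell anion exchanger, named after its values were seen, at 285 CPM against 56.2 and 52.9 CPM in the E13.5 KO libraries and 30.8 and 33.8 CPM in the other E15.5 KO libraries. The E15.5 WT library whose label begins with the same animal number had 250 CPM, the most among the E15.5 WT libraries. E15.5 KO replicate 2 also had the least germ cell RNA, 427 CPM summed over 20 germ cell genes against 525 and 682 CPM in the E13.5 KO libraries and 724 and 1106 CPM in the other E15.5 KO libraries. Embryonic globin Hbb-y, whose blood level falls as yolk sac red cells are replaced, was at 40.2, 39.04 and 13.4 CPM in the E15.5 KO testes and 1563 and 1223 CPM in the E13.5 KO testes, and at 31.8, 25.2 and 16.4 CPM in the E15.5 WT testes and 790.1, 1287 and 300.2 CPM in the E13.5 WT testes.

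**Figure D1:**
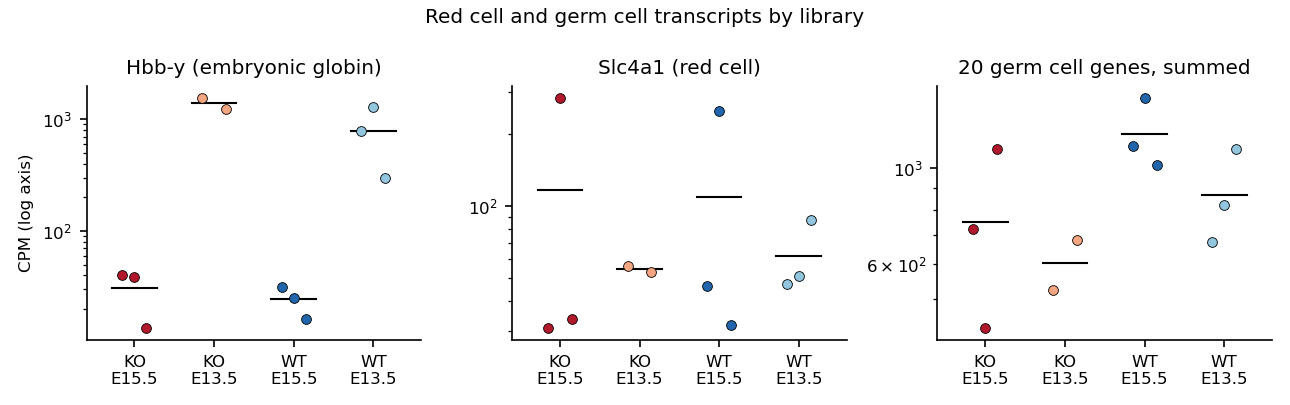
CPM on log axes in each library (points) with group means (lines) of Hbb-y, of Slc4a1 and of 20 germ cell genes summed. Hbb-y separated the ages in every library, Slc4a1 was highest in E15.5 KO replicate 2 (285 CPM), and the germ cell sum was lowest there (427 CPM).

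Between E13.5 and E15.5 the KO testis changed in 2977 genes, 16.0% of those tested. Of these, 2049 (11.0%) rose and 928 (4.98%) fell, while the median log2 change over all genes was 0.0161. Among the largest gains were steroidogenic enzymes and the Leydig cell hormone Insl3, and piRNA and DNA methylation factors of germ cells. Among the largest losses were pluripotency genes of germ cells, Lefty1 and embryonic globins. Without E13.5 KO replicate 2 the count was 1938, and over the 5 libraries left out in turn it was 1938 to 2890. In WT testes the same interval changed 2223 genes (11.9%), with 1615 (8.67%) higher and 608 (3.26%) lower at E15.5. Of the genes that rose in KO testes 1086 also rose in WT testes, 53.0% of the KO calls and 67.2% of the WT calls, and 432 genes fell in both, 46.6% of the KO calls and 71.1% of the WT calls.

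Leydig cell genes were high in E15.5 KO testes and low in E13.5 KO testes. Cyp11a1, the enzyme that cuts the cholesterol side chain and so starts steroid synthesis, was at 1692, 1912 and 1811 CPM in the E15.5 KO libraries and at 18.03 and 24.1 CPM in the E13.5 KO libraries. Every E15.5 library lay far above both E13.5 libraries, with a log2 fold change of 6.42 ± 0.40 (adjusted p = 3.12e-08), which is 85.6-fold. In WT testes Cyp11a1 already stood at 883, 551 and 1099 CPM at E13.5 and reached 1638, 1480 and 1502 CPM at E15.5, a log2 fold change of 0.87 ± 0.26. The change with age in KO testes therefore exceeded that in WT testes by 5.55 ± 0.44 on the log2 scale (95% interval 4.68 to 6.42, adjusted p = 2.07e-06).

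The enzymes that follow behaved alike. Cyp17a1, which turns progestogens into androgens, was at 2167, 2472 and 2252 CPM at E15.5 and 51.1 and 68.0 CPM at E13.5 in KO testes (5.27 ± 0.37, adjusted p = 1.01e-07). Hsd3b1, the dehydrogenase between these steps, was at 831, 827 and 819.9 CPM at E15.5 and 37.5 and 41.5 CPM at E13.5 (4.39 ± 0.22, adjusted p = 3.75e-09), though its reads may be shared with close paralogues. Neither gene's groups overlapped, and the 3 E15.5 values of Hsd3b1 differed by little. Star, the protein that carries cholesterol into the mitochondrion, was at 247, 304 and 269 CPM at E15.5 and 17.5 and 19.03 CPM at E13.5, a 14.9-fold rise. It remained lower than in WT testes at E15.5, where WT testes had 496, 492 and 615 CPM (KO minus WT -0.97 ± 0.18, adjusted p = 0.0221). The electron carrier Fdx1, which serves CYP11A1, was at 89.8, 103 and 105 CPM at E15.5 and 12.6 and 14.01 CPM at E13.5, and its reductase Fdxr at 319, 328 and 305 CPM and 135 and 132 CPM. Both rose, by 2.90 ± 0.17 and 1.25 ± 0.08, and both rose by more than in WT testes, the difference being 2.40 ± 0.20 for Fdx1 and 1.10 ± 0.10 for Fdxr.

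Some steroid genes took another course. Cyp21a1, the 21-hydroxylase, had 194, 133 and 351 reads in E15.5 KO libraries against 4 and 3 reads in E13.5 KO libraries, a rise of 5.96 ± 1.18 with a wide error. Cyp11b1, the 11-beta-hydroxylase, had 51, 57 and 54 reads at E15.5 and 0 and 3 reads at E13.5 in KO testes. These few reads do not bear a fold change, but in E15.5 WT testes the gene had 844, 860 and 1138 reads, and every E15.5 KO library was below every E15.5 WT library. Hsd3b6 went the other way from its paralogue: it fell to 1.27, 1.03 and 1.12 CPM in E15.5 KO testes, against 19.2 and 20.4 CPM in E13.5 KO testes (-4.11 ± 0.42), and it fell in WT testes too (-3.07 ± 0.40). Hsd11b2, which inactivates corticosterone, also fell, by 0.96 in KO and by 0.94 in WT testes on the log2 scale. Hsd17b1 and Hsd17b3, which Sertoli cells use to reduce androstenedione in the fetal mouse testis, rose in KO testes by 1.86 ± 0.28 and 0.90 ± 0.09. Their WT changes were 1.63 ± 0.25 and 0.42 ± 0.08, and neither gene was called different between genotypes. For Hsd17b3 the difference was 0.48 ± 0.12 (adjusted p = 0.0453), below the fold required. For Hsd17b1 it was 0.23 ± 0.36 (adjusted p = 0.876). Stard3, a cholesterol transporter of endosomes, did not pass the test, at 39.7, 40.4 and 40.7 CPM at E15.5 and 39.98 and 37.8 CPM at E13.5. Over the 23 tested genes of steroid synthesis, 14 rose and 2 fell in KO testes (median log2 change 0.934), beside 11.0% and 4.98% of all genes. In WT testes 7 rose and 2 fell (median 0.26), beside 8.67% and 3.26% of all genes. Leaving out 1 KO library at a time gave 11 to 14 that rose.

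The signalling genes of fetal Leydig cells rose with the enzymes. Insl3 was at 256, 293 and 271 CPM in E15.5 KO testes and 6.42 and 8.67 CPM in E13.5 KO testes, with no overlap (5.18 ± 0.35, adjusted p = 7.62e-08). In WT testes it was at 252, 238 and 199 CPM at E15.5 and 127, 75.7 and 149 CPM at E13.5, and the KO change exceeded the WT change by 4.21 ± 0.41. Lhcgr, the receptor for luteinising hormone, was at 52.9, 56.2 and 49.4 CPM at E15.5 and 2.41 and 3.42 CPM at E13.5 (4.18 ± 0.33). Here too each E15.5 KO library was above both E13.5 KO libraries, and in WT testes the change was 0.44 ± 0.22, which did not pass the test. Crhr1, the receptor for corticotropin-releasing hormone, was at 33.5, 33.1 and 33.9 CPM at E15.5 and 3.19 and 3.65 CPM at E13.5. Mrap, the accessory protein of the ACTH receptor, was at 6.04, 8.74 and 7.496 CPM and 0.637 and 0.593 CPM, and the receptor Mc2r itself at 8.04, 8.597 and 8.26 CPM and 3.69 and 4.06 CPM. All of these rose, as did the prolactin receptor Prlr (2.10 ± 0.26) and renin, Ren1, which was at 494, 592 and 447 CPM at E15.5 and 59.2 and 37.5 CPM at E13.5.

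Nr5a1, the nuclear receptor SF1 that Leydig and Sertoli cells both use, rose far less, to 576, 563 and 527 CPM at E15.5 against 339 and 343 CPM at E13.5 in KO testes (0.70 ± 0.11). The matrix genes Itih5 and Thbs2, which are enriched in fetal Leydig cells, rose by 2.29 ± 0.22 and 2.13 ± 0.26 in KO testes and by 1.31 ± 0.18 and 1.45 ± 0.22 in WT testes, and neither passed the test for a difference between genotypes. Ptch1, the hedgehog receptor and target, was at 296, 298 and 294 CPM at E15.5 and 319.7 and 359 CPM at E13.5 and did not pass the test. Vcam1, an adhesion molecule of mesenchyme, fell by 1.70 on the log2 scale. Among the 25 tested fetal Leydig genes, 18 rose and 2 fell in KO testes (median 1.03), beside 11.0% and 4.98% of all genes. In WT testes 6 rose and 2 fell (median 0.214), beside 8.67% and 3.26% of all genes. The number that fell was 1 when replicate 1 of either KO age was left out. The change differed between genotypes in 13 of the 25 genes and in 7 of the 23 steroid genes, always with the larger rise in KO testes, where 1.38% of all genes were called in that direction.

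**Figure D2:**
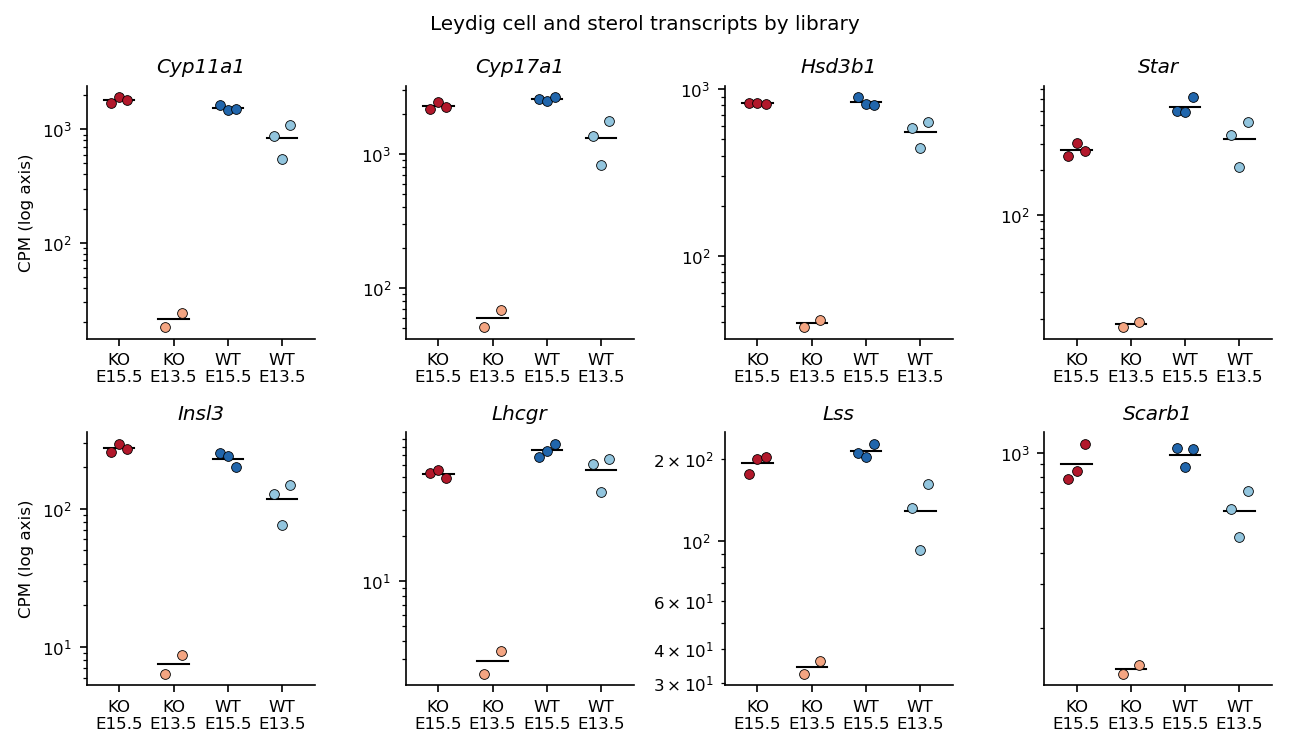
CPM on log axes of 6 Leydig cell genes, of Lss (sterol synthesis) and of Scarb1 (lipoprotein uptake) in each library (points) with group means (lines). In all 8 genes the 2 E13.5 KO libraries lay below every other library, for instance 18.0 and 24.1 CPM of Cyp11a1, and Star was lower in the E15.5 KO than in the E15.5 WT libraries.

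Set against WT testes of the same age, most of the differences lay at E13.5. At that age, 534 genes (2.87%) were called between KO and WT testes, 99 (0.531%) higher and 435 (2.33%) lower in KO, and at E15.5 the number was 83 (0.445%), 58 (0.311%) higher and 25 (0.134%) lower. These comparisons share their KO libraries with the comparison of ages, so they place the levels and add no independent evidence. Of the fetal Leydig genes, 12 of 25 were lower in KO at E13.5 and 0 of 25 at E15.5. Of the steroid genes, 10 of 23 were lower at E13.5 and 2 of 23 at E15.5, these being Star and Cyp11b1. The E13.5 WT libraries differed in Hbb-y, at 790.1, 1287 and 300.2 CPM, and had 883, 551 and 1099 CPM of Cyp11a1 in the same order. Cyp11a1 was thus lowest where Hbb-y was highest. The E13.5 KO libraries had 1563 and 1223 CPM of Hbb-y and 18.0 and 24.1 CPM of Cyp11a1. Whether the 2 levels are linked was not tested.

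The promoters of 3 genes of this group, Insl3, Lhcgr and Fdx1, are shown because each holds the letters TCAAGG, the core of the site that the nuclear receptor NR5A1 binds, and each rose more in KO than in WT testes. The windows run from 250 bases before to 50 bases after the start of the gene, 5′ to 3′ on the strand of the gene, and are from RefSeq on GRCm38.p6. Capitals mark TCAAGG or, where the match is on the other strand, CCTTGA.
Insl3 (chr8:71689002-71689301 on the plus strand): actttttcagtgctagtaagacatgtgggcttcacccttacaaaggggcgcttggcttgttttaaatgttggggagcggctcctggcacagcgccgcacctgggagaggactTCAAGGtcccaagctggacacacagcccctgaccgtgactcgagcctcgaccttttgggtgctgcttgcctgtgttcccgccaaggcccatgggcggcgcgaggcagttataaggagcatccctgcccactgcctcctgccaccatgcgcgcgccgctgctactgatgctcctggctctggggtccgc
Lhcgr (chr17:88791965-88792264 on the minus strand): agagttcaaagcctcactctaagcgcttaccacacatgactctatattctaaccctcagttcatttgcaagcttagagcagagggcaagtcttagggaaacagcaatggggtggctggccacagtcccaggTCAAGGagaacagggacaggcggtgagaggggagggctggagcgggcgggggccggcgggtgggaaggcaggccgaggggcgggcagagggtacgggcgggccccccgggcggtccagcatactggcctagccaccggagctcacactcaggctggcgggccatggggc
Fdx1 (chr9:51963553-51963852 on the minus strand): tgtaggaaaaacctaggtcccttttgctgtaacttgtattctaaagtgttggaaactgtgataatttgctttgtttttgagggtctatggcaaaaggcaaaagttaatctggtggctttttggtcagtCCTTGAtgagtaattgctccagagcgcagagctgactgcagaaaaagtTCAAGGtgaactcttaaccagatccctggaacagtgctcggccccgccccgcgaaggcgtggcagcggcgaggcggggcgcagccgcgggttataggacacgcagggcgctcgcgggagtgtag
On both strands TCAAGG was found in 14.4% of all 32851 windows and in 14.7% of the 12536 tested genes with a window. Among the 32 steroid and fetal Leydig genes that rose, 21 had a window and 6 of these (28.6%) held it. The motif was picked with the results known, and a match is a description of letters in this window only.

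Cholesterol synthesis, which feeds the steroid enzymes, rose almost as a whole. Tm7sf2, a sterol reductase, was at 57.6, 63.8 and 57.9 CPM in E15.5 KO testes and 6.33 and 8.35 CPM in E13.5 KO testes (3.02 ± 0.27, adjusted p = 1.08e-06). Lss, which closes squalene epoxide into the first sterol, was at 176, 201 and 204 CPM at E15.5 and 32.6 and 36.3 CPM at E13.5 (2.49 ± 0.18). For both genes the ages were well apart in KO testes, and the change exceeded that of WT testes by 2.003 ± 0.33 and 1.77 ± 0.22. Fdps, which makes farnesyl diphosphate, was at 39.6, 45.8 and 53.5 CPM and 8.197 and 11.4 CPM, and Dhcr7, the last reductase of the pathway, at 260.5, 304 and 294 CPM and 58.1 and 65.3 CPM, at E15.5 and at E13.5 in that order. Hmgcs1, the synthase at the head of the pathway, rose by 1.41 ± 0.15. Further along, Idi1, Sqle, Cyp51 and Hsd17b7 rose by 1.32, 1.15, 1.75 and 2.17 on the log2 scale.

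In all, 20 of 22 sterol synthesis genes rose in KO testes and none fell, beside 11.0% and 4.98% of all genes. The median log2 change was 1.39. The number that rose was 20 whichever single KO library was left out. In WT testes 4 of 22 rose (median 0.438), beside 8.67% of all genes. The change was larger in KO than in WT testes in 17 of 22, beside 1.38% of all genes. Against WT testes of the same age, 20 of 22 were lower in KO at E13.5 and 0 of 22 at E15.5, where the median KO minus WT difference was -0.182 on the log2 scale. The 2 genes that did not rise were Ggps1, which leads to isoprenoids and not to sterols, at 27.6, 27.5 and 28.4 CPM at E15.5 and 27.6 and 29.5 CPM at E13.5, and Lbr, a nuclear envelope protein with sterol reductase activity, at 55.9, 65.3 and 56.0 CPM and 71.1 and 77.99 CPM.

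The promoters of Lss and Tm7sf2, the 2 sterol synthesis genes with the largest rise, are shown with the letters CCAAT, the box bound by NF-Y, in capitals. In both windows the match is on the other strand and reads ATTGG.
Lss (chr10:76531355-76531654 on the plus strand): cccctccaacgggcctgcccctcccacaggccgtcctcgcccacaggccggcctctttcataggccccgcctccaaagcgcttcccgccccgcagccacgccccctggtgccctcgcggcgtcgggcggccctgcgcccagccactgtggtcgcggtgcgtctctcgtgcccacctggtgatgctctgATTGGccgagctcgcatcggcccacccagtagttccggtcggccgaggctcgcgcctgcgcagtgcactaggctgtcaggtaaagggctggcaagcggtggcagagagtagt
Tm7sf2 (chr19:6067801-6068100 on the minus strand): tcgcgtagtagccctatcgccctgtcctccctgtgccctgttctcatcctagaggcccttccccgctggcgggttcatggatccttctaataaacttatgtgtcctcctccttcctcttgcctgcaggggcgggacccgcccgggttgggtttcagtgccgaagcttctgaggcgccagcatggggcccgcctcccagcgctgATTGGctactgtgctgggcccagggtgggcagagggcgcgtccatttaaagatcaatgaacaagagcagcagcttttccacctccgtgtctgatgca
On both strands CCAAT was found in 37.4% of all windows and in 42.2% of the tested genes with a window, and in 16 of the 17 sterol synthesis genes with a window (94.1%). It was in 14 of the 15 that rose, and in the windows of Ggps1 and Lbr, which did not, so its presence did not follow the call. This motif too was picked with the results known.

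Uptake and sensing of sterols changed in part. Scarb1, the scavenger receptor for high-density lipoprotein, was at 789, 844 and 1083 CPM at E15.5 and 132 and 143 CPM at E13.5 in KO testes (2.72 ± 0.27), and the groups did not overlap. It was at 1040, 876 and 1034 CPM at E15.5 and 595, 461 and 701 CPM at E13.5 in WT testes, where it rose less (0.75 ± 0.21), the difference being 1.97 ± 0.33. Insig1, which holds back the sterol sensor, was at 117, 142 and 158 CPM in E15.5 KO testes and 47.1 and 56.6 CPM in E13.5 KO testes. It rose, as did Srebf2, the master factor of sterol genes (0.63 ± 0.09). The 2 genes that fell, Abcg1 and Mylip, encode a transporter that carries cholesterol out of the cell and a ubiquitin ligase, and they fell by 0.87 and 0.79 on the log2 scale. Of 23 genes 10 rose and 2 fell in KO testes, beside 11.0% and 4.98% of all genes. In WT testes 1 rose and 1 fell, beside 8.67% and 3.26% of all genes.

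Fatty acid synthesis rose in most of its genes. Scd1, the desaturase that makes oleate, named here after its values were seen, was at 54.8, 84.5 and 72.96 CPM in E15.5 KO testes and 6.24 and 9.903 CPM in E13.5 KO testes. Fads2, which desaturates polyunsaturated fatty acids, was at 438, 538 and 459 CPM and 142 and 133 CPM, and malic enzyme, Me1, at 344, 361 and 388 CPM and 187 and 175 CPM. Scd1, Fads2 and Me1 rose by 3.13 ± 0.46, 1.80 ± 0.15 and 1.01 ± 0.12, while Me1 in WT testes was at 395 ± 42.7 CPM at E15.5 and 399.5 ± 63.5 CPM at E13.5 (SD, n = 3 each). Fads1 and Acly, which makes acetyl-CoA from citrate, rose by 1.15 ± 0.12 and 1.05 ± 0.13. Fasn, the synthase itself, also named after its values were seen, was at 584, 651 and 600.5 CPM at E15.5 and 541 and 578 CPM at E13.5 and did not pass the test. In KO testes 11 of 17 genes rose and none fell (median 0.781), beside 11.0% and 4.98% of all genes. In WT testes 2 rose (median 0.379), beside 8.67% of all genes.

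**Figure D3:**
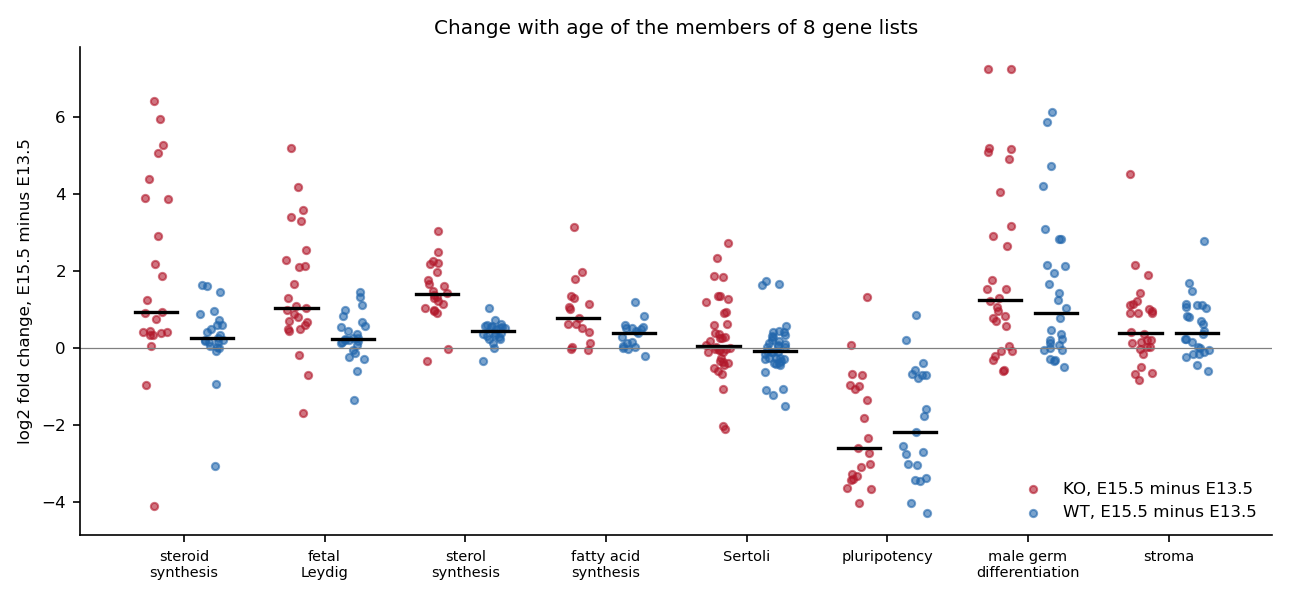
Log2 fold change, E15.5 minus E13.5, of each tested member of the gene groups named on the x axis, in KO testes (red, left) and in WT testes (blue, right), with medians as black bars. The sterol synthesis median was 1.39 in KO and 0.438 in WT testes, while the pluripotency medians, -2.6 in KO and -2.19 in WT testes, lay close together.

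Over all genes, the change with age differed between KO and WT testes in 279 genes, 1.5% of those tested. In 257 (1.38%) the change was more positive in KO testes and in 22 (0.118%) more negative. The 257 had a median log2 change of 1.71 in KO and 0.342 in WT testes, with a median KO minus WT difference of -1.31 at E13.5 and 0.0806 at E15.5. These medians describe genes chosen by the same libraries. When 1 library was left out the 279 became 138 to 370, with 154 without E13.5 KO replicate 1 and 138 without E13.5 KO replicate 2.

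Among them were genes outside steroid synthesis. Clps, a pancreatic lipase cofactor, had 227, 196 and 364 reads in E15.5 KO libraries against 5 and 3 in E13.5 KO libraries, and 14.2, 10.2 and 10.7 CPM at E15.5 and 13.04, 5.55 and 12.8 CPM at E13.5 in WT testes. Bpifb4, of the lipid-binding BPI family, was at 19.6, 22.8 and 16.9 CPM at E15.5 and 0.865 and 0.7302 CPM at E13.5 in KO testes. Xdh, xanthine dehydrogenase, was at 5.402, 4.32 and 5.58 CPM and 0.228 and 0.0456 CPM, again E15.5 KO before E13.5 KO. Each was close to 0 in E13.5 KO testes and none passed the test in WT testes, and the differences between genotypes in the change were 5.83 ± 0.68, 4.89 ± 0.46 and 4.69 ± 0.51. Hao2, a peroxisomal hydroxy acid oxidase, and Oca2, a melanosomal transporter, differed by 4.20 ± 0.34 and 4.55 ± 0.47. Oxtr, the oxytocin receptor, and Slc45a3, a sugar transporter, were named after their values were seen. In KO testes Oxtr was at 80.4, 80.1 and 79.9 CPM at E15.5 and 5.51 and 5.93 CPM at E13.5, and Slc45a3 at 80.8, 83.9 and 71.7 CPM and 5.19 and 5.16 CPM. WT testes had 63.4 ± 2.69 CPM of Oxtr at E15.5 and 58.9 ± 12.5 CPM at E13.5 (SD, n = 3 each).

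Shh, a hedgehog ligand that is not the one Sertoli cells secrete, had 64, 52 and 76 reads in E15.5 KO libraries and 3 and 3 in E13.5 KO libraries. It was the one hedgehog gene of 14 whose change was called larger in KO testes (4.44 ± 0.69), and its fold change rests on the few E13.5 reads. The heat shock genes Hspa1a and Hspa1b, near-identical copies whose reads may be shared, were at 16.6, 17.9 and 17.4 CPM and 38.8, 41.1 and 41.3 CPM in E15.5 KO testes, against 3.64 and 4.38 CPM and 9.43 and 11.6 CPM in E13.5 KO testes. They rose, and they were the 2 of 19 stress genes whose change differed between genotypes, beside 1.5% of all genes. That call was lost without either E13.5 KO library. Of the 19, 5 rose in KO testes and none fell, beside 11.0% and 4.98% of all genes. The summed level of the list was 1986 to 2149 CPM at E15.5 and 2109 and 2201 CPM at E13.5.

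In opposite directions in the 2 genotypes moved 6 genes, of which 5 rose in KO and fell in WT testes. Mal, a membrane raft protein, was at 5.63, 4.93 and 7.94 CPM at E15.5 and 0.364 and 0.958 CPM at E13.5 in KO testes, and at 11.8, 5.89 and 7.98 CPM at E15.5 and 28.8, 32.3 and 18.7 CPM at E13.5 in WT testes. It rose by 3.21 ± 0.44 in KO testes and its WT change was -1.63 ± 0.27, a difference of 4.84 ± 0.51. Grin2c, a glutamate receptor subunit, was at 11.4, 11.8 and 9.59 CPM and 3.55 and 4.66 CPM in KO testes (1.41 ± 0.24), and its WT change was -0.73 ± 0.20. The other 3 were Gm13052 (2.12 in KO, -0.77 in WT), Slit1, an axon guidance ligand (0.89 and -0.61), and Shisa7, a receptor auxiliary protein (0.76 and -0.79). Tnnc1, a troponin, was the 1 gene that fell in KO and rose in WT testes. It was at 5.54, 6.06 and 6.25 CPM at E15.5 and 9.79 and 8.94 CPM at E13.5 in KO testes, and the KO call was lost without E13.5 KO replicate 1. The KO call of Shisa7 was lost without that library too, and that of Slit1 when either E13.5 KO library was left out.

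In the more negative direction the differences were smaller. Gja5, a gap junction protein of arteries, was at 20.2, 18.1 and 11.4 CPM at E15.5 and 59.6 and 60.7 CPM at E13.5 in KO testes, and at 20.4 ± 4.99 CPM and 26.9 ± 4.29 CPM in WT testes (SD, n = 3 each). It fell in KO testes by 1.86 on the log2 scale, and so did another connexin, Gja4, by 1.41. Col9a3, a cartilage-type collagen, was at 37.0, 34.7 and 27.7 CPM at E15.5 and 159.9 and 175 CPM at E13.5 in KO testes, and fell in both genotypes, by 2.34 in KO and 1.32 in WT testes. The genotype difference in the change was lost in 8 of 11 fits that left out a library for Gja5 and in 10 of 11 for Col9a3. Ccl17, a chemokine, rose in KO testes to 50.4, 57.3 and 66.3 CPM at E15.5 against 21.9 and 17.1 CPM at E13.5, and rose more in WT testes, to 12.9, 13.2 and 14.3 CPM against 1.84, 1.48 and 2.42 CPM, so that it was higher in KO at both ages (2.11 ± 0.12 at E15.5 and 3.35 ± 0.16 at E13.5).

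**Figure D4:**
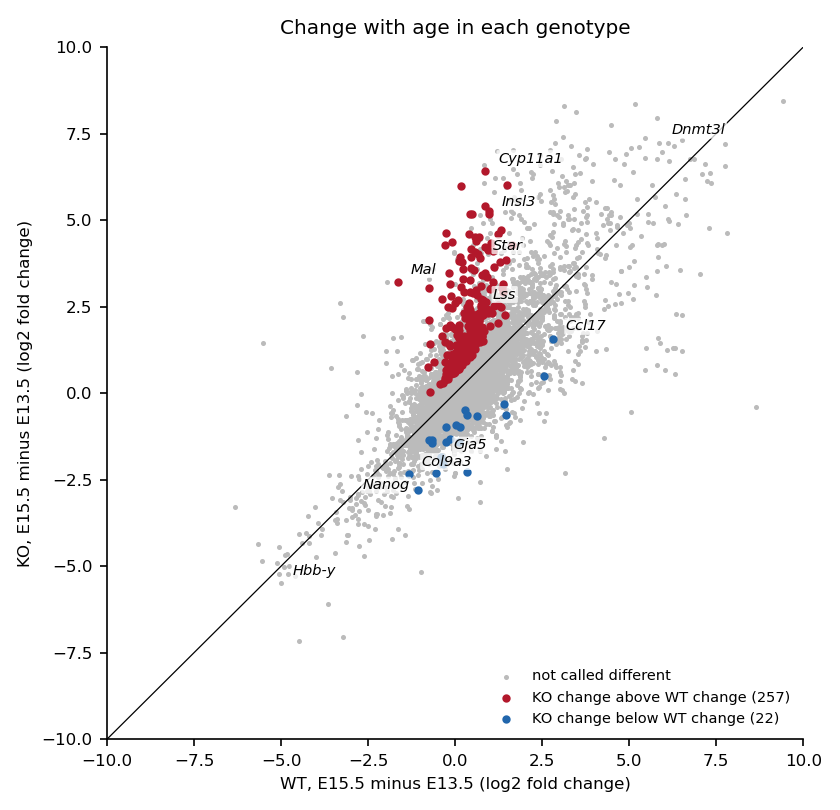
Log2 fold change, E15.5 minus E13.5, of each tested gene in WT testes (x axis) and in KO testes (y axis), with the line of equal change. The 257 genes in red changed more positively in KO and the 22 in blue more negatively, and most red points lay near 0 on the WT axis and well above it on the KO axis.

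Sertoli cell genes were mixed. Fshr, the receptor for follicle-stimulating hormone, named after its values were seen, was at 19.6, 22.6 and 20.03 CPM in E15.5 KO testes and 4.05 and 2.24 CPM in E13.5 KO testes (2.72 ± 0.32). It rose in WT testes too, by 1.74 ± 0.29. Clu, the secreted chaperone clusterin, was at 1380, 1518 and 1404 CPM and 614 and 515 CPM, and Defb19, a beta-defensin, at 113, 112 and 104 CPM and 43.9 and 41.7 CPM, E15.5 KO before E13.5 KO. These rose more in KO than in WT testes, by 1.02 ± 0.15 and 1.08 ± 0.17. Gata4 was at 532 ± 15.9 CPM and 555 ± 5.71 CPM, and Sox9, which drives Sertoli cell fate, at 91.3 ± 5.34 CPM and 125 ± 12.8 CPM, at E15.5 (SD, n = 3) and E13.5 (SD, n = 2) in that order. Neither passed the test, nor did Amh, and these 2 factors were named after their values were seen. Sox10, a relative of Sox9, fell to 7.04, 7.19 and 6.34 CPM at E15.5, against 26.3 and 32.8 CPM at E13.5. Of 38 Sertoli genes 10 rose and 4 fell in KO testes with a median log2 change of 0.0559, and 3 rose and 4 fell in WT testes. Of all genes 11.0% rose and 4.98% fell in KO testes. The change with age was called more positive in KO than in WT testes in 7 of the 38 and more negative in 0. Over all genes these shares were 1.38% and 0.118%. At E13.5, 9 of the 38 were lower in KO than in WT testes, the deleted gene Inha among them, and 1 was higher.

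Pluripotency genes of the germ cells fell in the KO testis. Nanog, a core pluripotency factor, was at 4.903, 2.82 and 2.41 CPM in E15.5 KO testes and 23.6 and 31.2 CPM in E13.5 KO testes, a fall of 3.02 on the log2 scale, and the WT change was -3.02 ± 0.32. Dppa5a, a marker of pluripotent and primordial germ cells, was at 6.45, 4.89 and 2.59 CPM and 51.7 and 63.98 CPM, and Esrrb, a nuclear receptor of the same network, at 3.77, 2.73 and 3.17 CPM and 25.3 and 30.5 CPM. No E15.5 KO library reached an E13.5 KO library in any of the 3 genes. Prdm14 and Sox2, named after their values were seen, fell by 3.68 and 2.34, Prdm1, a founder of the germ line, by 1.83 and Tcl1 by 3.32. L1td1, an RNA-binding protein of pluripotent cells, Tdh, the threonine dehydrogenase of the same cells, and Foxh1, the partner of SMAD2 in Nodal signalling, fell by 5.01, 4.66 and 4.33.

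Nodal, a ligand of the activin type, was at 1.45, 0.799 and 0.491 CPM at E15.5 and 8.61 and 10.9 CPM at E13.5 in KO testes, and Lefty1, its secreted antagonist and target, at 2.72, 2.44 and 2.19 CPM and 23.9 and 28.9 CPM. Tdgf1, its co-receptor Cripto, had 4, 4 and 4 reads in E15.5 KO libraries against 59 and 76 in E13.5 KO libraries, and all 3 genes fell. Of 21 pluripotency genes, 17 fell and 1 rose in KO testes (median -2.6), beside 4.98% and 11.0% of all genes. In WT testes 15 fell and 0 rose (median -2.19), beside 3.26% and 8.67% of all genes. No member passed the test for a difference between genotypes, which does not show that the changes were equal.

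Genes that mark prospermatogonia, the male germ cells that have stopped dividing, rose. Dnmt3l, the cofactor of de novo DNA methylation, had 386, 239 and 1263 reads in E15.5 KO libraries against 4 and 4 in E13.5 KO libraries. Spocd1, which directs methylation to young transposons, was at 24.6, 13.2 and 78.0 CPM at E15.5 and 0.319 and 0.182 CPM at E13.5, and Piwil4, the nuclear piRNA-binding protein MIWI2, at 42.4, 26.7 and 94.8 CPM and 1.002 and 2.01 CPM. In all 3 genes every E15.5 KO library was far above both E13.5 KO libraries, replicate 3 was the highest and replicate 2 the lowest at E15.5, the order of the summed germ cell genes. The log2 changes were 7.24 ± 1.11, 7.24 ± 1.09 and 5.18 ± 0.77 in KO testes and 5.87 ± 0.74, 6.12 ± 0.74 and 4.20 ± 0.56 in WT testes. The part of germ cell content in the spread among E15.5 KO libraries was not tested.

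Other piRNA factors rose as well. Tdrd9, an RNA helicase of the pathway, was at 39.8, 21.1 and 99.1 CPM and 1.27 and 1.87 CPM, Mael at 80.2, 46.8 and 149 CPM and 9.97 and 14.7 CPM, and Morc1, a silencer of transposons, at 33.9, 16.2 and 51.3 CPM and 1.69 and 2.37 CPM, E15.5 KO before E13.5 KO. Henmt1, the methylase that protects piRNA ends, rose by 4.90 ± 0.78, and the germ cell factor Sohlh1 by 6.002 ± 0.78. Nanos2, the guardian of male germ cell fate, named after its values were seen, was at 5.99, 3.43 and 2.37 CPM at E15.5 and 0.4098 and 0.456 CPM at E13.5 (3.16 ± 1.05, adjusted p = 0.0308). Its call was lost when either E13.5 KO library or replicate 1 of E15.5 was left out. In WT testes Nanos2 was at 7.03, 9.75 and 2.81 CPM at E15.5 and 2.68, 0.895 and 16.2 CPM at E13.5, where the highest value came from the E13.5 library with the least Hbb-y. Stra8, a target of retinoic acid that precedes meiosis, was at 2.59, 3.01 and 3.39 CPM in E15.5 KO testes and 0.228 and 0.319 CPM in E13.5 KO testes (3.43 ± 0.50), at low levels throughout. It rose in WT testes too (2.73 ± 0.54), to 0.786, 0.874 and 0.907 CPM at E15.5. At that age it was higher in KO than in WT testes (1.80 ± 0.37, adjusted p = 0.0349). Cyp26b1, which degrades retinoic acid in the testis, fell by 0.72 in KO and by 1.08 in WT testes.

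Of 28 genes of male germ cell differentiation 15 rose and 1 fell in KO testes (median 1.25), beside 11.0% and 4.98% of all genes. In WT testes 14 rose and 0 fell (median 0.904), beside 8.67% and 3.26% of all genes. No gene was called different between genotypes. The KO count moved with single libraries: 10 rose when either E13.5 KO library was left out, and 13, 19 and 11 when the E15.5 KO libraries 1, 2 and 3 were left out in turn, library 2 being that with the least germ cell RNA. Genes that germ cells express from earlier on took different courses. Ddx4, the germ cell RNA helicase, was at 83.3, 46.4 and 103 CPM at E15.5 and 84.2 and 110.3 CPM at E13.5 (-0.32 ± 0.30), with overlapping groups. Dazl, a translational regulator, was at 76.7, 42.04 and 78.7 CPM at E15.5 and 171 and 236 CPM at E13.5 and fell by 1.63 on the log2 scale. Both were named after their values were seen. Kit, the receptor tyrosine kinase of primordial germ cells, fell by 1.01. The 20 general germ cell genes gave 11 that rose and 3 that fell in KO testes, but 7 rose without E13.5 KO replicate 1 and 6 without E13.5 KO replicate 2.

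**Figure D5:**
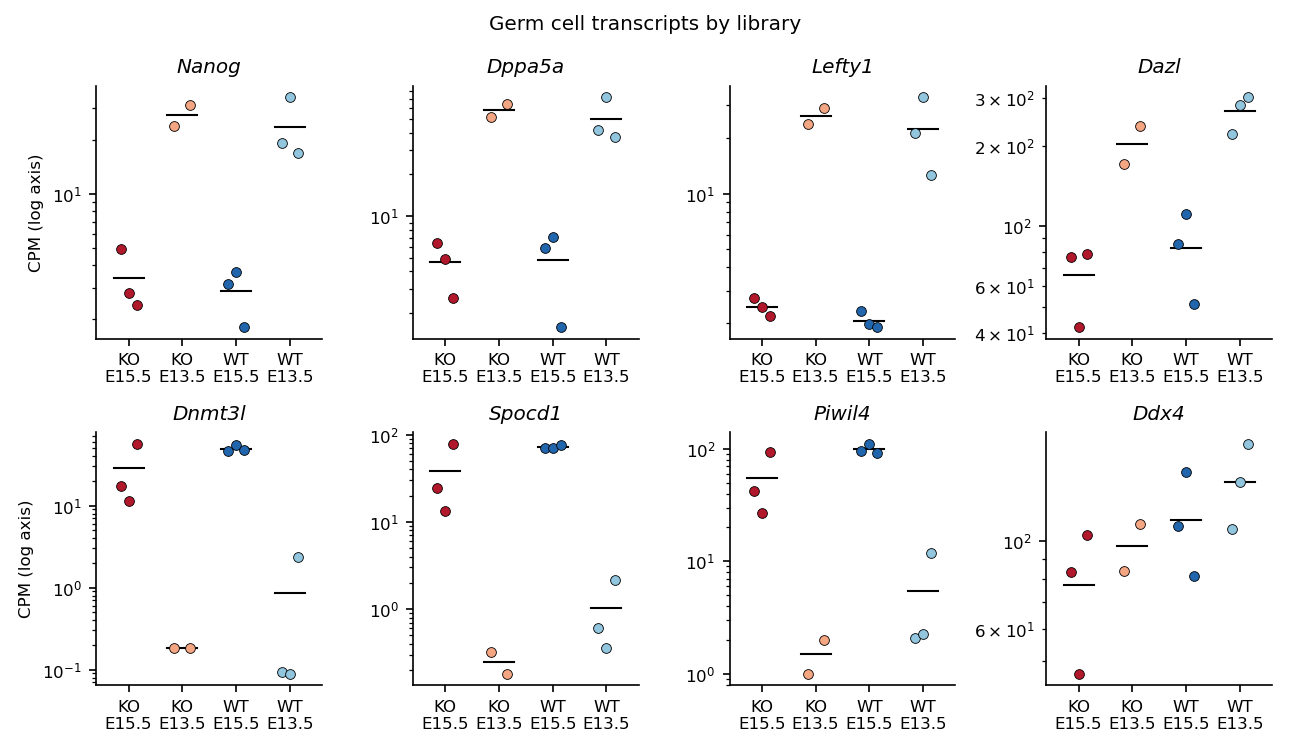
CPM on log axes of 8 germ cell genes in each library (points) with group means (lines). Nanog, Dppa5a and Lefty1 were lower at E15.5 in both genotypes and Dnmt3l, Spocd1 and Piwil4 higher, with E15.5 KO values of Dnmt3l between 11.2 and 56.4 CPM, while Ddx4 overlapped between ages.

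Among genes of the interstitial stroma, 12 of 26 rose and 3 fell in KO testes (median 0.378), beside 11.0% and 4.98% of all genes, and 11 rose and 1 fell in WT testes (median 0.39), with none called different between genotypes. Dpt, dermatopontin, was at 2.95, 4.84 and 5.04 CPM in E15.5 KO testes and 0.182 and 0.182 CPM in E13.5 KO testes. Ogn, a small leucine-rich proteoglycan, was at 72.3, 85.7 and 96.3 CPM and 20.7 and 17.3 CPM, and Mfap4, a protein of elastic fibres, at 731, 819 and 790 CPM and 379 and 343 CPM. All rose without overlap, and all rose in WT testes as well (2.77 ± 0.43, 1.68 ± 0.23 and 1.05 ± 0.13). In the wider matrix, Lama2, a laminin chain, and Eln, elastin, rose by 2.25 ± 0.29 and 2.24 ± 0.26, while Col18a1, a basement membrane collagen, was at 666, 689 and 639 CPM at E15.5 and 1630 and 1631 CPM at E13.5 and fell, as did Col9a1, by 4.10. Of 33 matrix genes 6 rose and 4 fell in KO testes, against 7 and 3 in WT testes.

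Of 44 genes of the activin and inhibin system and its relatives, 4 rose and 9 fell in KO testes (median -0.0839), against 4 and 8 in WT testes, where 11.0% of all genes rose and 4.98% fell in KO testes. Inhba, the beta-A subunit of activin A, was at 42.99, 45.6 and 57.5 CPM in E15.5 KO testes and 8.88 and 7.99 CPM in E13.5 KO testes, with no overlap (2.53 ± 0.26, adjusted p = 3.56e-06). In WT testes it was at 51.9, 52.97 and 60.95 CPM at E15.5 and 27.1, 15.4 and 33.8 CPM at E13.5 (1.12 ± 0.20), and the difference between genotypes (1.41 ± 0.32, adjusted p = 0.0315) was lost in 8 of 11 fits that left out a library. Inhba is made by fetal Leydig cells among others and was also counted with the Leydig genes above. Inhbb, the beta-B subunit, was at 267, 305 and 292 CPM at E15.5 and 220.3 and 232 CPM at E13.5, below the fold required.

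Follistatin Fst, which binds activin, was at 8.58, 7.47 and 8.12 CPM and 3.73 and 3.01 CPM, and its relative Fstl3 at 8.399, 8.97 and 9.68 CPM and 2.004 and 2.74 CPM, E15.5 KO before E13.5 KO, and both rose. Gdf15, a distant ligand of the family, rose by 2.02 ± 0.23. In WT testes Fst, Fstl3 and Gdf15 rose too, by 0.81 ± 0.22, 1.26 ± 0.19 and 1.30 ± 0.20. The type II receptor Acvr2b fell by 0.96, while Acvr2a was at 28.9, 33.5 and 26.9 CPM at E15.5 and 38.3 and 39.4 CPM at E13.5 and the type I receptor Acvr1b at 72.0, 73.6 and 66.3 CPM and 63.9 and 61.1 CPM, and neither was called. Id2, a target of BMP signalling, and the ligand Bmp7 fell by 0.88 and 0.80. Among the 9 that fell were Nodal, Lefty1 and Tdgf1, which the germ cell groups above also hold.

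The embryonic globins fell. Hbb-y and the alpha-like Hba-x, at 28.6, 31.6 and 11.7 CPM in E15.5 KO testes and 583 and 685 CPM in E13.5 KO testes, fell by 5.50 and 4.73, and Hbb-bh1 fell by 4.91, with WT changes of -5.02, -4.002 and -5.11. Of 16 red cell genes 4 rose and 3 fell in KO testes, beside 11.0% and 4.98% of all genes. The number that rose was 2 without E15.5 KO replicate 2. Slc4a1 was above the E13.5 KO libraries in that library alone. Its log2 change was 1.10 ± 0.85 and did not pass the test, and it was -0.76 without it.

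The other groups are set beside the 11.0% of all genes that rose and the 4.98% that fell in KO testes. Of 47 cell cycle genes none rose and 5 fell in KO testes (median -0.326), against none and 4 in WT testes, among them Ccnd1, cyclin D1, at 26.2, 26.3 and 23.96 CPM at E15.5 and 45.5 and 46.4 CPM at E13.5, and Mybl2, a factor of dividing cells, at 35.95, 33.3 and 32.4 CPM and 61.2 and 69.1 CPM. Of 22 macrophage and immune genes 5 rose and none fell in each genotype, among them lysozyme, Lyz2, at 26.4, 29.8 and 29.9 CPM and 6.47 and 5.16 CPM in KO testes. Of 21 imprinted growth genes 3 rose and 5 fell in KO testes, against 1 and 2 in WT testes, including Peg3 and Peg10, which fell by 0.82 and 0.88, and Dlk1, also a Leydig cell gene, which rose by 0.89 ± 0.12. Of 18 endothelial genes 1 rose and 5 fell in KO testes, against 1 and 2 in WT testes, and of 25 genes of glycolysis 1 rose and 4 fell, against 1 and 3 in WT testes.

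Some markers of tissues next to the gonad also moved with age, though most were not called. Their counts are set beside the 11.0% of all genes that rose and the 4.98% that fell in KO testes. Of 17 genes of the mesonephros and its ducts 1 rose and 5 fell in KO testes, against 1 and 2 in WT testes, and their summed level was 360 to 405 CPM at E15.5 and 525 and 565 CPM at E13.5 in KO testes. Lhx1, a duct and kidney factor, was at 0.726, 0.188 and 0.5801 CPM in E15.5 KO testes and 16.7 and 23.2 CPM in E13.5 KO testes, Epcam at 9.26, 6.91 and 10.5 CPM and 41.3 and 47.5 CPM, and Emx2 at 42.9, 44.8 and 30.2 CPM and 91.3 and 87.2 CPM. In WT testes Lhx1 and Epcam fell too, by 4.59 and 1.89 on the log2 scale, and Emx2 was not called. Skeletal muscle genes summed to 29.9 to 42.0 CPM at E15.5 and 43.7 and 65.4 CPM at E13.5 in KO testes, while 2 of the 11 rose and 2 fell, with a median log2 change of 0.419, against 2 and 1 in WT testes. Nerve and glia genes summed to 70.0 to 78.3 CPM at E15.5 and 55.3 and 57.2 CPM at E13.5, and of the 14 genes 3 rose and 1 fell in KO testes, against 1 and 1 in WT testes. The part of these tissues in the changes above was not tested.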

How the data were processed

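RNA was taken from whole testes with a column kit and DNase, and sequenced paired-end. Per the study's methods, the authors cleaned the reads (SOAPnuke), mapped them with STAR on GRCm38 and deposited read counts per gene from featureCounts. The pipeline was RNAsik. No strand setting is stated in the sources read, so reads of overlapping antisense genes cannot be told apart. The deposited counts were analysed with edgeR 4.0.16 in R 4.3.3, in place of the authors' limma voom, which served as an alternative. Genes passing filterByExpr (18635 of 19110) entered 1 quasi-likelihood model with 6 groups of age and genotype over 17 libraries, so the 2 E13.5 KO libraries borrow their spread from the other groups. Groups followed the titles: the genotype field of the E15.5 WT samples reads KO, against their titles. Total counts were 21020002 to 22166752 per library, and replicates differed beyond counting noise (chi-square per gene 6.1 to 18.2), so the spread between libraries sets the error. Settings tried as alternatives are given in the closing section, and the code was tested on simulated data.

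The groups compared and the 29 gene lists were chosen with earlier results of these data known. The genes named are the 10 largest changes in each direction with at least 5 CPM and no overlap, members of the steroid, Leydig, sterol and activin lists, up to 6 called members of every other list, the 10 largest differences between genotypes in each direction, and genes called in opposite directions. Others are marked as named after their values were seen. Some genes that these rules name are not reported here.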

Additional observations from a re-analysis of the deposited data

Results flagged for a closer look

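The change from E13.5 to E15.5 differed between KO and WT testes in 279 genes by the test of that difference, and those among the genes named above are given here with the KO change minus the WT change on the log2 scale. Among genes of steroid synthesis these were Cyp11a1 (5.55), Cyp17a1 (4.30), Hsd3b1 (3.79), Star (3.18), Fdx1 (2.40) and Fdxr (1.10). Among other fetal Leydig cell genes they were Insl3 (4.21), Lhcgr (3.73), Mrap (3.37), Crhr1 (3.08), Ren1 (2.57), Prlr (1.42), Inhba (1.41), Mc2r (1.35) and Nr5a1 (0.64). Among lipid genes they were Tm7sf2 (2.0), Lss (1.77), Fdps (1.68), Dhcr7 (1.59), Hsd17b7 (1.57), Cyp51 (1.20), Hmgcs1 (1.02), Sqle (0.81), Scarb1 (1.97), Insig1 (0.98), Fads2 (1.21), Me1 (1.03) and Fads1 (0.72). Of 38 Sertoli cell genes 7 differed, and those named above were Clu (1.02) and Defb19 (1.08). Of stress genes Hspa1a (1.70) and Hspa1b (1.52) differed. Genes of no common group that changed more positively in KO testes were Clps (5.83), Bpifb4 (4.89), Mal (4.84), Xdh (4.69), Oca2 (4.55), Shh (4.44), Hao2 (4.20), Oxtr (3.70), Slc45a3 (3.48), Gm13052 (2.88), Grin2c (2.15), Shisa7 (1.55) and Slit1 (1.5). Those that changed more negatively were Gja5 (-1.46), Tnnc1 (-1.28), Ccl17 (-1.25), Gja4 (-1.15) and Col9a3 (-1.01). Some of the genes listed here lost this call when an E13.5 KO library was left out. With either left out, these were Inhba, Prlr, Nr5a1, Gja5, Col9a3, Tnnc1, Hspa1a, Hspa1b, Sqle, Fads1 and Slit1. Hmgcs1, Insig1 and Hsd17b7 lost it without replicate 1 but not without replicate 2, and Gja4 the reverse. Over all 11 fits that left out a library, Sqle lost it in 9, and Nr5a1 and Prlr in 8 each. No group held enough libraries for a test of single outlying libraries, and no measurements other than these counts were looked at.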

How the results depend on the processing

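The 2977 genes called between the ages in KO testes became 1301 with glmTreat against a 1.5-fold change, 1223 with a log2 threshold of 1.5 and 5647 with the adjusted p alone, and leaving out 1 KO library gave 1938 to 2890. The 2223 genes in WT testes became 822, 922 and 4647 under the same 3 settings, and 1521 to 2515 without 1 WT library. The 279 genes that differed between genotypes became 88 with glmTreat and 117 with a log2 threshold of 1.5, and 138 to 370 without 1 library. These thresholds pass fewer or more genes by construction. DESeq2, limma voom, RLE factors, library totals, both other filters, robust dispersion and smaller sets of libraries in the fit kept each of these totals within 1.5 times. This does not hold for the 22 genes that changed more negatively in KO testes, which became 49 with DESeq2.

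Of 2448 pairs of a gene and a setting for the KO comparison, 2375 kept direction and call, 66 lost the call and 3 gained it. The 144 genes covered were selected from the lists and rules and include those named after their values were seen. The sign turned for Ggps1 without E13.5 KO replicate 2 (0.009, range -0.091 to 0.009 without 1 library), for Slc4a1 without E15.5 KO replicate 2 (-0.76, range -0.76 to 1.55) and for Inha without E13.5 KO replicate 1 (-0.35) or without E15.5 KO replicate 2 (-1.17, range -1.17 to 3.75), genes that were not called. For the difference between genotypes Piwil4, also not called, turned to -0.34 without E13.5 WT replicate 3 (range -0.34 to 1.56), and 124 of 1210 pairs lost the call. The cause was not tested. Nanos2 also lost its call with limma voom, with robust dispersion and without the newborn libraries.

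No paired analysis was possible because the labels give the ages no shared replicate numbers, and numbers within a group follow the order of deposit. With 2 E13.5 KO libraries, genes with few reads there carry the widest errors.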
